A study of Mus musculus with 17 samples.

Results

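The liver clears and reshapes steroid hormones, and 9 genes that carry out such steps are described here: Hsd3b2, Hsd3b3, Hsd3b5, Hsd11b1, Hsd17b2, Srd5a1, Srd5a2, Akr1c6 and Cyp17a1. They were taken by name from a table of 48440 mouse genes. All 9 were found, and 8 passed the filter on low values, a mean normalized value of at least 10 over all libraries, which left 14588 genes for testing. Srd5a2 did not pass.

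Polyadenylated liver RNA was compared in 17 libraries of 3 groups. The first group was 6 libraries from 2-month-old miR-29 transgenic mice (TG), 5 males and 1 female. The second was 5 libraries from 2-year-old wild-type mice (WT), 3 males and 2 females. The third was 6 libraries from 2-month-old WT mice, 4 males and 2 females. The mice are B6. The labels name the transgene by miR-29 alone, and neither its promoter nor the cells that drive it is given in the sources used here. Batch A, 10 libraries, was made with an Illumina TruSeq polyA kit in North Carolina, and batch B, 7 libraries, all male, with a NEBNext Ultra II Directional kit at Cornell. Among TG libraries, 1 and 2 are batch A males, 3 is the batch A female, and 4 to 6 are batch B males. Among 2-year-old WT libraries, 1 and 2 are batch A females, 3 is a batch A male, and 4 and 5 are batch B males. Among 2-month-old WT libraries, 1 and 2 are batch A males, 3 and 4 are batch A females, and 5 and 6 are batch B males.

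Steroid hormones are switched on and off by enzymes that oxidise or reduce single positions of the ring system. Hydroxysteroid dehydrogenases interconvert a hydroxyl and a keto group, 5α-reductases saturate the A ring, and aldo-keto reductases of the Akr1c family reduce keto groups. In mouse liver several of these genes are known to differ between males and females, a difference set largely by the sex-specific rhythm of growth hormone. Hsd3b5 is a textbook male-biased liver gene. Cyp17a1, the 17α-hydroxylase and lyase on the path to androgens, is best known from the gonads.

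Values below are the authors' normalized values per gene, in which sequencing depth is unknown, so no counting interval or detection limit is given. Differences are log2 fold changes of (value + 1) from 1 limma model with group, batch and sex as terms, with the standard error (SE). A gene is called at a Benjamini-Hochberg adjusted p under 0.05 over all 14588 genes, and "rose" and "fell" are used of called genes only. The labels do not say that each library came from a separate animal, so p-values measure the spread between these libraries. In bulk liver, fewer cells of a type and less RNA per cell cannot be told apart.

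One library stands apart. The summed value of 8 adrenal or gonadal marker genes was 9743 in 2-year-old WT library 4, against 45.0 to 182 in the other 16 libraries. In that library Star, which moves cholesterol into mitochondria, stood at 3443, Cyp21a1, the steroid 21-hydroxylase, at 3088, Cyp11b1, which makes corticosterone, at 1778, and Hsd3b1, the adrenal and gonadal 3β-dehydrogenase, at 1701. Values without it are given beside most of the age, sex and TG against 2-year-old WT results that are described. They are not given for Hsd17b6 between the sexes, or for Hsd17b4 and Hsd3b2 in TG against 2-year-old WT. Defining hepatocyte genes were high in every group, with sums over 8 markers of 1707110 to 5552450 in TG, 2542800 to 3950540 in 2-year-old WT and 2711240 to 4345930 in 2-month-old WT libraries. Between TG and 2-month-old WT 0 of the 8 was called, where 3.83% of all genes fell and 2.89% rose. By limma 2 of the 8 had unadjusted p under 0.05, and 6 had negative log2 fold changes. The authors' deposited DESeq2 comparison called Ttr lower (-1.10, adjusted p = 0.00975) and Cps1 higher (0.81, adjusted p = 0.0329). Neutrophil markers rose in TG for 8 of 8 genes, with sums of 444 to 44205 in TG, 97.5 to 2053 in 2-year-old WT and 30.1 to 482 in 2-month-old WT libraries. Erythroid markers rose for 3 of 5 genes, with sums of 22179 to 1583780 in TG, 11815 to 54739 in 2-year-old WT and 10320.5 to 160742 in 2-month-old WT libraries. Their part in the results on TG livers was not tested.

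**Figure D1:**
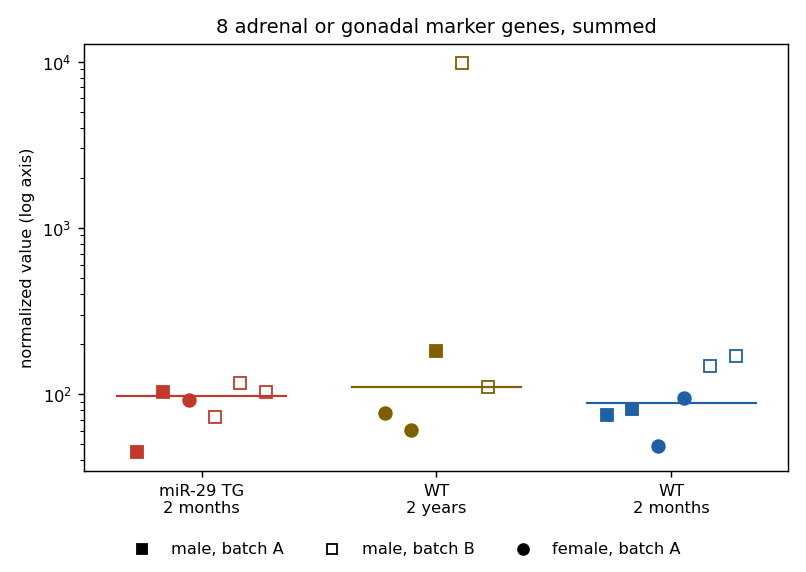
Summed normalized value of 8 adrenal or gonadal marker genes (log axis) in each library, for TG at 2 months, WT at 2 years and WT at 2 months from left to right, with squares for males (filled, batch A; open, batch B), circles for females and lines at group medians. The sum is 9743 in 2-year-old WT library 4 and at most 182 in the others.

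Hsd3b5, Hsd3b2 and Hsd3b3 are neighbours on the minus strand of chromosome 3 (GRCm38, the assembly that mm10 names). They lie at chr3:98618634-98630252, chr3:98709255-98724543 and chr3:98741523-98763127 and together span 144 kb. All 3 are protein-coding. Hsd11b1 lies at chr1:193221634-193264075, Hsd17b2 at chr8:117701904-117759027, Srd5a1 at chr13:69573449-69611442 and Srd5a2 at chr17:74016955-74047916. Akr1c6 lies at chr13:4434306-4457877 and Cyp17a1 at chr19:46667165-46673172.

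The start-site windows of the 3 Hsd3b neighbours are shown because all 3 genes were lower in TG livers while 2 of them are near copies. The coding sequences of Hsd3b2 and Hsd3b3 are 95.1% identical, against 80.7% for Hsd3b2 and Hsd3b5 and 79.9% for Hsd3b3 and Hsd3b5. The windows, from 250 bases before to 50 bases after the RefSeq start on the minus strand, are less alike, at 44.5% for Hsd3b2 and Hsd3b3, 51.0% for Hsd3b2 and Hsd3b5 and 54.1% for Hsd3b3 and Hsd3b5. Capitals mark the longest run that Hsd3b5 shares with Hsd3b3, 24 bases, and the longest that it shares with Hsd3b2, 19 bases.
Hsd3b5, chr3:98645485-98645784: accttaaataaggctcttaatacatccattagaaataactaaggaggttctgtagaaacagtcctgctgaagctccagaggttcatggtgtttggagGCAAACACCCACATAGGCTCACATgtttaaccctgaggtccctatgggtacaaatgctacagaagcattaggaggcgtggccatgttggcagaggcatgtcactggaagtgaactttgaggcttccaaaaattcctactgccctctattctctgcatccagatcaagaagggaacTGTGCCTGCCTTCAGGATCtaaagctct
Hsd3b3, chr3:98763079-98763378: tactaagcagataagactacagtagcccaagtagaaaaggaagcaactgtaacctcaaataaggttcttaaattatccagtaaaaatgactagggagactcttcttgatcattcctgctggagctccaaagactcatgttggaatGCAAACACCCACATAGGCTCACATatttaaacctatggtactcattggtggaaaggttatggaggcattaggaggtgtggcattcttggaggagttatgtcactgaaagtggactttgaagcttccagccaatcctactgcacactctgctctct
Hsd3b2, chr3:98724494-98724793: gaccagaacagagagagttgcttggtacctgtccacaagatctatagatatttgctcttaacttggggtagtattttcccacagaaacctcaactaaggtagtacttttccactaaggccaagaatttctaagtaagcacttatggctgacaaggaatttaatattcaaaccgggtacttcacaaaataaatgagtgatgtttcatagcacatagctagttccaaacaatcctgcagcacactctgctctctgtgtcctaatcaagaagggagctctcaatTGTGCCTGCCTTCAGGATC
The 24-base run begins at position -153 in Hsd3b5 and -105 in Hsd3b3, and the 19-base run at position 22 in Hsd3b5 and 31 in Hsd3b2, counted from 0 at the start site. The 19-base run reaches the last base of the Hsd3b2 window, so its full length is not seen there. The RefSeq start of Hsd3b5 lies upstream of the gene's extent in the GENCODE annotation. RefSeq windows (GRCm38.p6) were matched by symbol for 7 of the 9 genes, all but Hsd17b2 and Cyp17a1. On either strand, the STAT5 letters TTCNNNGAA were in 0 of the 7, against 8.30% of 32851 windows of the same length. The steroid receptor half-site AGAACA was in 1, that of Hsd3b2 at position -246, against 19.0% of windows. The letters ATCGAT of HNF6 and CUX2 were in 0, against 0.925% of windows. These are matches of letters, not measured binding.

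The mature miR-29 sequences are shown because the transgene carries this microRNA and because a match to its seed can be sought in the 9 genes. The labels do not say which family member is expressed. In the RefSeq sequences, capitals mark the seed, bases 2 to 8, which all 3 share.
mmu-miR-29a-3p: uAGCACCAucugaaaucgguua
mmu-miR-29b-3p: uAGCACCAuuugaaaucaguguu
mmu-miR-29c-3p: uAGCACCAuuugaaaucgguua
The seed match TGGTGCT occurred in the longest annotated 3′ UTR of 13.2% of 20831 genes and in 1 of the 9 genes here, Srd5a1, once. That site lies at chr13:69573693-69573721 on the minus strand, at base 1420 of 1681 of the UTR, with the match in capitals.
Srd5a1 site: tttggagggcaTGGTGCTaaagttggaac
The other 8 genes had 0 matches, including the 5 others that fell in TG livers. The UTRs of those 5 were 2251 bases long in Hsd3b2, 373 in Hsd3b5, 361 in Hsd3b3, 339 in Akr1c6 and 82 in Hsd17b2. A short UTR leaves little room for a match, and the share of 13.2% is not matched for length.

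TG livers at 2 months, set against WT livers of the same age, asked what the miR-29 transgene did to these messages. Of the 8 genes tested, 6 fell (Hsd3b2, Hsd3b3, Hsd3b5, Hsd17b2, Srd5a1, Akr1c6), 1 rose (Cyp17a1), and Hsd11b1 was not called. Over all genes tested, 3.83% fell and 2.89% rose. The median log2 fold change was -2.19 over the 8 genes and 0.01 over all genes. The plot of every library's value shows 5 of the 9 genes lower in every TG than in every 2-month-old WT library, Hsd3b2, Hsd3b3, Hsd17b2, Srd5a1 and Akr1c6, which was so for 1.84% of all genes.

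**Figure D2:**
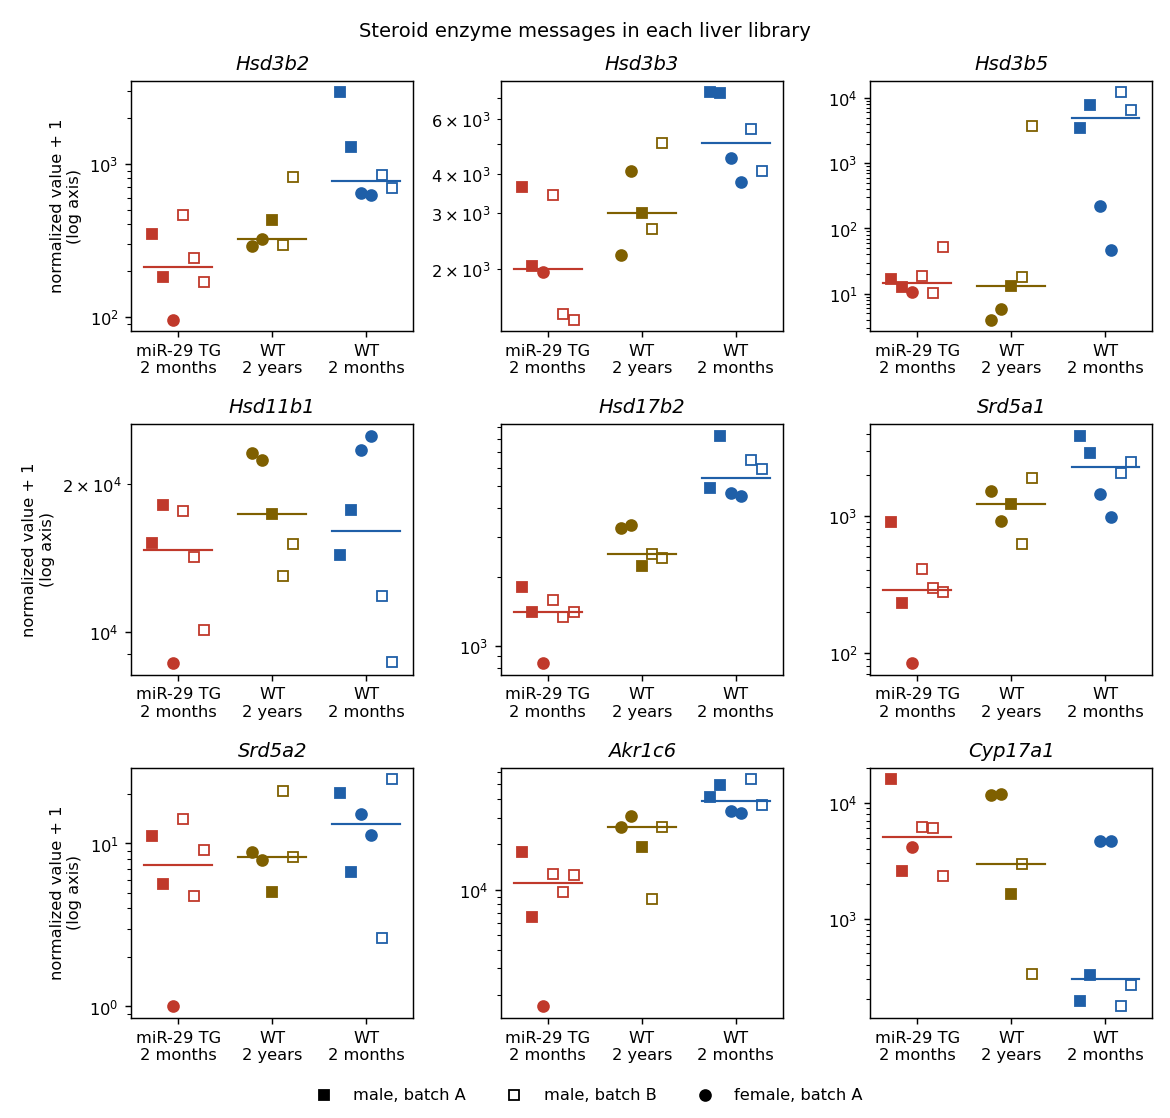
Normalized value + 1 (log axes, each with its own range) of the 9 genes in each of 17 liver libraries, for TG at 2 months, WT at 2 years and WT at 2 months from left to right. Squares are males (filled, batch A; open, batch B), circles are females, and lines are group medians; Hsd17b2 and Akr1c6 are lowest in TG and highest in 2-month-old WT by median, while Cyp17a1 stands at 173 to 327 in 2-month-old WT males and at 2310 to 16059 in TG males.

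Hsd3b5, the male-biased liver form that reduces 3-ketosteroids, showed the widest gap. In TG males it stood at 15.6, 11.7, 18.0, 9.4 and 51.9, against 3466, 7850, 12123 and 6422 in 2-month-old WT males. The TG female had 9.6, against 220 and 46.0 in 2-month-old WT females. Every TG male was thus below the lower of the WT females' values except library 6. The mean of TG males was 350.1-fold lower than that of WT males, and in the model of both sexes Hsd3b5 fell by 7.42 on the log2 scale (SE 1.10, adjusted p = 0.000613). Batch A alone gave -6.30 (adjusted p = 0.0221) and batch B alone -8.66 (adjusted p = 0.0698).

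Hsd3b2 and Hsd3b3, the liver and kidney forms that convert Δ5 to Δ4 steroids, also fell. Hsd3b2 ranged from 94.1 to 457 with a median of 210 in TG, against 621 to 2921 with a median of 770 in 2-month-old WT libraries. Its log2 fold change was -2.29 (SE 0.35, adjusted p = 0.000696), with -2.81 in batch A alone (adjusted p = 0.00851) and -1.53 in batch B alone (adjusted p = 0.179). Hsd3b3 ranged from 1373 to 3648 with a median of 1997 in TG, against 3785 to 7282 with a median of 5024 in 2-month-old WT libraries. The highest TG library lay just below the lowest WT library for this gene, and the change was smaller, -1.31 (SE 0.27, adjusted p = 0.00674), with -1.25 in batch A alone (adjusted p = 0.0584) and -1.33 in batch B alone (adjusted p = 0.173). Of the 50-base windows of coding sequence, 35.6% in Hsd3b2, 34.1% in Hsd3b3 and 29.7% in Hsd3b5 occur in another annotated gene, so the division of reads among Hsd3b genes is uncertain. Summed over the 3 genes, the value ranged from 1593 to 4012 in TG, against 4452 to 18527 in 2-month-old WT libraries, and these ranges did not overlap. Windows of Hsd3b5 are shared with Hsd3b1, Hsd3b4, Hsd3b6 and genes with Gm names, and with neither Hsd3b2 nor Hsd3b3. The sum therefore does not settle the division of reads for Hsd3b5.

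Hsd17b2, which oxidises estradiol to estrone and testosterone to androstenedione, gave the tightest separation. It ranged from 839 to 1805 with a median of 1409 in TG, against 4506 to 8281 with a median of 5425 in 2-month-old WT libraries. The means were 1396 ± 321 in TG and 5792 ± 1440 in WT (SD, n = 6 each). It fell by 2.09 on the log2 scale (SE 0.21, adjusted p = 3.27e-05), with -2.12 in batch A alone (adjusted p = 0.0124) and -2.11 in batch B alone (adjusted p = 0.0102). It was called within each batch, as was Srd5a1.

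Srd5a1, the 5α-reductase that makes dihydrotestosterone and also clears glucocorticoids in liver, ranged from 82.9 to 895 with a median of 288 in TG, against 982 to 3859 with a median of 2274 in 2-month-old WT libraries. The lowest TG value was the female's. The log2 fold change was -2.97 (SE 0.38, adjusted p = 0.000252), with -3.17 in batch A alone (adjusted p = 0.0237) and -2.80 in batch B alone (adjusted p = 0.0369). Reads may be shared with the annotated gene Gm17108, in which 32.5% of the 50-base coding windows of Srd5a1 also occur. Srd5a2, the 5α-reductase of the male reproductive tract, was near the bottom of the table in all groups, at 0 to 13.1 in TG, 4.1 to 20.0 in 2-year-old WT and 1.6 to 23.9 in 2-month-old WT libraries. With the filter dropped, its log2 fold change in TG was -1.01 (adjusted p = 0.532).

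Akr1c6, a liver 17β-hydroxysteroid dehydrogenase of the aldo-keto reductase family that acts on androgens and oestrogens, ranged from 1678 to 17644 with a median of 11086 in TG, against 32388 to 54104 with a median of 38927 in 2-month-old WT libraries. Here too the TG female was lowest, in the library with the lowest hepatocyte marker sum of all 17 (1707110), whose part was not tested. The log2 fold change was -2.40 (SE 0.45, adjusted p = 0.00348), with -2.87 in batch A alone (adjusted p = 0.0421) and -1.95 in batch B alone (adjusted p = 0.0841).

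Cyp17a1 was the gene that rose. TG males had 16059, 2594, 6152, 6041 and 2310, against 193, 327, 173 and 267 in 2-month-old WT males, and no value overlapped. The TG female had 4187, against 4697 and 4670 in 2-month-old WT females. Among males the mean was 27.6-fold higher in TG, and the model of both sexes gave 3.47 (SE 0.68, adjusted p = 0.00489). Batch A alone, which holds all females, gave 2.77 (adjusted p = 0.151) and batch B alone 4.35 (adjusted p = 0.0562).

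Hsd11b1, which regenerates active glucocorticoid from its inert 11-keto form, ranged from 8633 to 18118 with a median of 14666 in TG, against 8685 to 25084 with a median of 16020 in 2-month-old WT libraries. The groups overlapped widely. The log2 fold change was -0.13 (95% confidence interval -0.67 to 0.40, adjusted p = 0.819), and its sign was positive in males alone (0.25), in batch B alone (0.43) and without TG library 3 (0.19).

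**Figure D3:**
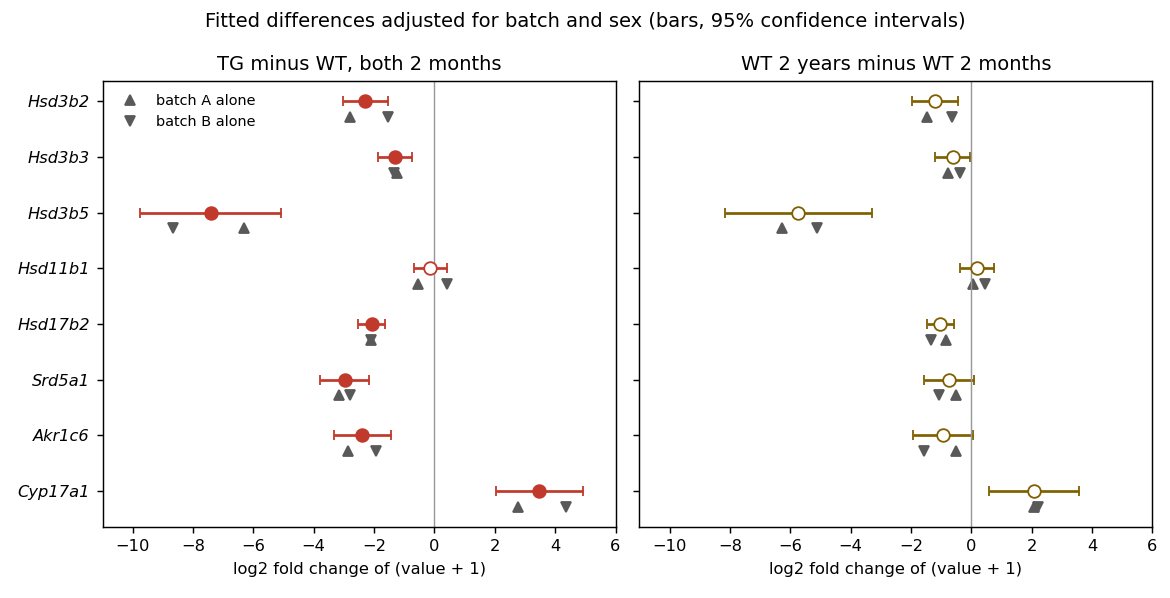
Log2 fold changes of (value + 1) with 95% confidence intervals for the 8 tested genes, TG minus WT at 2 months on the left and 2-year-old minus 2-month-old WT on the right. Filled circles were called and open circles were not; triangles give each batch alone, which has the same sign as the joint value for every gene but Hsd11b1 in the left panel.

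Leaving out any 1 of the 17 libraries left 7 calls among these genes, 2-year-old WT library 4 among them. In the authors' deposited table for TG against WT, 7 of the 8 genes tested here were called too, at 14.1% of all its genes in either direction. The number called was 5 in batch A alone and 2 in batch B alone, where all 7 had unadjusted p under 0.05.

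Counted without any model, 6 of the 9 genes were lower in all TG males than in all 2-month-old WT males, against 3.44% of all genes, and 1, Cyp17a1, was higher in all TG males, against 2.85% of all genes. All 9 were lower in the TG female than in both 2-month-old WT females, Cyp17a1 and Hsd11b1 included, but so were 43.9% of all genes. The TG females were 1 library, so an interaction term of transgene and sex does not measure a difference between the sexes. Sex and the animal cannot be told apart. For Hsd3b5 the TG female (9.6) lay within the TG males (9.4 to 51.9), as for Cyp17a1 (4187 against 2310 to 16059). In 2-month-old WT the sexes lay apart, with Hsd3b5 at 46.0 and 220 in females against 3466 to 12123 in males. Cyp17a1 stood at 4670 and 4697 in those females against 173 to 327 in males. The term was past the threshold for 194 of 14588 genes, Hsd3b5 (5.32, female minus male, SE 1.10, adjusted p = 0.0398) and Cyp17a1 (-4.66, SE 0.97, adjusted p = 0.0409) among them. No interaction of transgene with batch passed for the 8 genes, with adjusted p of 0.301 or more. It passed for 96 of all 14588 genes.

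Age was examined in WT livers, 2 years against 2 months. None of the 8 genes was called by limma (5 had unadjusted p under 0.05), where 0.096% of all genes rose and 0.048% fell. The median log2 fold change was -0.84 over the 8 genes and -0.003 over all genes. In the authors' deposited table, which called 1.77% of its genes in either direction, 3 were called: Cyp17a1 with a log2 fold change of 2.25 (adjusted p = 0.000306), Hsd17b2 with -1.06 (adjusted p = 0.00169) and Hsd3b5 with -4.54 (adjusted p = 0.0152). Hsd17b2 and Akr1c6 were lower in every 2-year-old than in every 2-month-old WT library, which was so for 0.26% of all genes.

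Hsd17b2 stood at 3267, 3375, 2226, 2528 and 2423 in 2-year-old WT libraries 1 to 5, against 4506 to 8281 in 2-month-old WT libraries. The log2 fold change was -1.03 (SE 0.21, adjusted p = 0.0803), with -0.84 in batch A alone and -1.32 in batch B alone, and in males alone it was called, at -1.39 (adjusted p = 0.0211). With both sexes but without library 4 it was -0.98 (adjusted p = 0.199). Akr1c6 stood at 25858, 30787, 19238, 8654 and 26112 in 2-year-old WT libraries, against 32388 to 54104 in 2-month-old WT libraries. Library 4, with the adrenal markers, was the lowest, and the log2 fold change of Akr1c6 was -0.95 (adjusted p = 0.580) with it and -0.55 without it (adjusted p = 0.995).

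For Hsd3b5 the call depended on which libraries entered. The 2-year-old WT males had 12.3, 16.9 and 3664, against 3466 to 12123 in 2-month-old WT males, and 2-year-old WT females had 3.0 and 4.8, against 220 and 46.0 in 2-month-old WT females. Library 5 thus lay within the range of young males, and the other 4 lay below all young libraries. The log2 fold change was -5.73 (SE 1.15, adjusted p = 0.0706) with all libraries. Without library 5 it was -7.06 and was called (adjusted p = 0.00274), and without TG library 3, which alters only the shared spread and the batch and sex terms, -5.66 and called (adjusted p = 0.0323), as was Hsd17b2 at -1.04 (adjusted p = 0.0323). Without library 4 it was -4.94 (adjusted p = 0.181).

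Cyp17a1 stood at 1635, 2947 and 334 in 2-year-old WT males, against 173 to 327 in 2-month-old WT males. In 2-year-old WT females it was 11642 and 11822, against 4697 and 4670 in 2-month-old WT females. Both sexes were therefore above their young counterparts in every library, in males by as little as 334 against 327. The log2 fold change was 2.07 (SE 0.71, adjusted p = 0.435), with 2.08 in batch A alone and 2.20 in batch B alone. Without library 4, which held 2947, it was 1.72 (adjusted p = 0.938).

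The other 4 genes tested were not called either. Hsd3b2 stood at 290, 322, 430, 291 and 811 in 2-year-old WT libraries 1 to 5, against 621 to 2921 in 2-month-old WT libraries, with library 5 again the highest of its group (log2 fold change -1.20, adjusted p = 0.325; without library 4 -1.02, adjusted p = 0.810). Hsd3b3 gave -0.62 (adjusted p = 0.552), and -0.55 without library 4 (adjusted p = 0.995). Srd5a1 gave -0.74 (adjusted p = 0.598), and -0.43 without library 4 (adjusted p = 0.995), which held its lowest old value. Hsd11b1 gave 0.19 (adjusted p = 0.822), and 0.23 without library 4 (adjusted p = 0.995). Srd5a1 was lower in all 3 old males than in all 4 young males, at 1223, 620 and 1897 against 2050 to 3859, while the females overlapped, at 1529 and 914 in 2-year-old WT against 1448 and 982 in 2-month-old WT. A difference in the age effect between sexes or batches passed for none of the 8 genes. Of all 14588 genes, it passed for 1 between sexes and for 182 between batches.

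**Figure D4:**
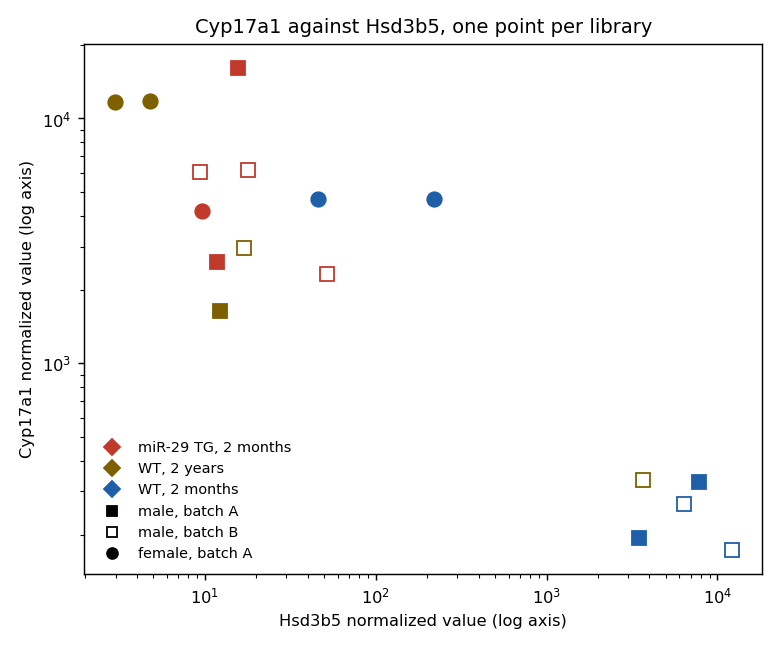
Normalized value of Cyp17a1 (vertical) against Hsd3b5 (horizontal), both on log axes, 1 point per library, coloured by group with squares for males (filled, batch A; open, batch B) and circles for females. The 4 young WT males and 2-year-old WT library 5 sit at the lower right, with Hsd3b5 of 3466 to 12123 and Cyp17a1 of 173 to 334; the other 12 libraries sit at the upper left, with Hsd3b5 of 3.0 to 220 and Cyp17a1 of 1635 to 16059.

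Plotted against each other, Cyp17a1 and Hsd3b5 split the libraries into separate sets, so no correlation is given for this pair. One set holds the 4 young WT males and 2-year-old WT library 5. The other holds all 5 females, all 5 TG males and the other 2 old males. The 2 sets were read from the values and were not compared by a test.

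The sexes were compared within WT, females minus males, with age and batch as terms. Cyp17a1 was the 1 gene of the 8 called higher in females, by 3.65 (SE 0.60, adjusted p = 0.0194), and 0 were called lower, where 0.315% of all genes were higher and 0.267% lower. Values were 4670 to 11822 in the 4 WT females, against 173 to 2947 in the 7 WT males, with no overlap. Batch A alone gave 3.67 (adjusted p = 0.00904), and batch B holds no female. Without 2-year-old WT library 4 it was 3.72 (adjusted p = 0.00118). The call was lost without 2-year-old WT library 3 (adjusted p = 0.0734) or without 2-month-old WT library 1 (0.112), 2 (0.0712), 3 (0.0824) or 4 (0.0839), and with all genes tested unfiltered (0.135), while the log2 fold change was 3.34 or more in all 11 omissions. Hsd3b5 was -4.06 (SE 1.48, adjusted p = 0.462; without that library 4 -4.23 and 0.162), with 3.0 to 220 in WT females against 12.3 to 12123 in WT males. Within young batch A libraries its log2 fold change was -5.68 (adjusted p = 0.106). Hsd3b2 gave -1.22 (adjusted p = 0.412; -1.24 and 0.282 without it) and Srd5a1 -0.88 (adjusted p = 0.620; -0.93 and 0.323 without it).

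TG livers were also set against the 2-year-old WT livers. Hsd17b2 fell, at 839 to 1805 in TG against 2226 to 3375 in 2-year-old WT libraries with no overlap (log2 fold change -1.06, SE 0.22, adjusted p = 0.0153). Srd5a1 fell as well, at 82.9 to 895 in TG against 620 to 1897 in 2-year-old WT libraries (-2.23, SE 0.40, adjusted p = 0.00628). Without 2-year-old WT library 4 these were -1.11 (adjusted p = 0.0154) and -2.58 (adjusted p = 0.00132). These 2 of 8 stood beside 1.84% of all genes lower and 0.713% higher. Both calls were lost in males alone, at -0.68 for Hsd17b2 (adjusted p = 0.185) and -1.63 for Srd5a1 (adjusted p = 0.102), and in each batch alone. Without 2-year-old WT library 4, Akr1c6 was called too (-1.90, adjusted p = 0.0252, against -1.45 and 0.128 with it), and without TG library 4 Hsd3b2 was (-1.31, adjusted p = 0.0467). The share of all genes called in those fits is not given here, so the calls of Akr1c6 and Hsd3b2 are not read as a result. Cyp17a1 differed by 1.40 (adjusted p = 0.372; 1.80 and 0.243 without 2-year-old WT library 4) and Hsd3b5 by -1.69 (adjusted p = 0.537; -2.59 and 0.279 without it), so neither was called between TG and old livers. This comparison and the one against young WT share the TG libraries, and the TG and age comparisons share the 2-month-old WT libraries.

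Levels can be ordered between genes only per length, here the mean normalized value per kb of the longest coding transcript. In TG livers Hsd11b1 was first at 8601, then Akr1c6 at 7258, Cyp17a1 at 2590, Hsd3b3 at 1509, Hsd17b2 at 1058, Srd5a1 at 138, Hsd3b2 at 67.1, Hsd3b5 at 12.5 and Srd5a2 at 4.1. In 2-year-old WT livers Akr1c6 led at 15852, then Hsd11b1 at 11202, Cyp17a1 at 2362, Hsd3b3 at 2219, Hsd17b2 at 2094, Hsd3b5 at 478, Srd5a1 at 468, Hsd3b2 at 116 and Srd5a2 at 5.7. In 2-month-old WT livers Akr1c6 led at 29513, then Hsd11b1 at 10378, Hsd17b2 at 4388, Hsd3b3 at 3531, Hsd3b5 at 3241, Srd5a1 at 866, Cyp17a1 at 716, Hsd3b2 at 316 and Srd5a2 at 7.8. By mean, Cyp17a1 thus took the third place in TG and in old livers and the seventh in young WT livers. In both WT groups its mean is made of low males and high females, at means of 1639 and 11732 in old livers. Its places therefore also depend on the sexes in each group. The place of Hsd3b5 in old livers rests on library 5, which held 3664 against 3.0 to 16.9 in the other 4. Neighbours such as Hsd17b2, Hsd3b3 and Hsd3b5 in young livers, or Hsd11b1 and Akr1c6 in TG livers, lay within each other's spread over libraries.

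Across the 17 libraries, on log2(value + 1), Pearson's r among the 6 genes that fell in TG ran from 0.62, for Hsd3b5 and Akr1c6, to 0.92, for Srd5a1 and Akr1c6. Hsd3b5 reached 0.77 at most, with Hsd3b2. Hsd11b1 reached at most 0.42 with any of the others. The points share the groups, batches and sexes, and the 6 genes share a difference between groups, so these values are a description. Outside the 9 genes, Akr1c6 was most like Hsd17b12 (0.96), a ketoacyl reductase of fatty acid elongation, and Fabp1 (0.95), the liver fatty acid binding protein. Srd5a1 was most like Glyat (0.95), the glycine acyltransferase, and Keg1 (0.94), and Hsd3b2 and Hsd3b3 were both most like Aox3, an aldehyde oxidase (0.92 and 0.93). Hsd17b2 was most like Il1rap (0.90), the accessory chain of the interleukin receptor, followed by Mup-ps13 (0.90) and Mup17 (0.89) of the major urinary protein family. Hsd3b5 was most like RP23-306P12.3 (0.94) and Serpina9 (0.92), Cyp17a1 like Slc22a27 (0.93) and Cyp3a63-ps (0.92), and Hsd11b1 like Itm2b (0.93) and Pon1 (0.89).

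Other genes of steroid handling were counted from lists. In TG against 2-month-old WT livers, 1 of 2 tested Hsd3b genes outside the 9 fell, Hsd3b7, the dehydrogenase of bile acid synthesis (-1.41, adjusted p = 0.00627). It ranged from 2792 to 8022 in TG, against 6584 to 19406 in 2-month-old WT libraries. Of 7 other 17β- and 11β-dehydrogenases, 2 fell: Hsd17b12 (-1.29, adjusted p = 0.0319) and Hsd17b4 of peroxisomal β-oxidation (-0.58, adjusted p = 0.0423). Both are known mainly for fatty acid steps. Of 8 other reductases, 3 fell, all Akr1c genes: Akr1c12 (-1.04, adjusted p = 0.00286), Akr1c13 (-1.03, adjusted p = 0.0145) and Akr1c14 (-1.24, adjusted p = 0.0266). Of 4 redox partners, Por, the reductase that feeds electrons to microsomal P450 enzymes such as Cyp17a1, rose (1.44, adjusted p = 0.0361) and Cyb5b, an outer mitochondrial cytochrome b5, fell (-1.32, adjusted p = 0.0486). Cyp21a1 was the 1 of 4 other steroidogenic genes that fell (-3.58, adjusted p = 0.0327), at 0 to 5.6 in TG against 0 to 93.9 in 2-month-old WT libraries. The filter used the mean over all libraries, 2-year-old WT library 4 with its adrenal markers among them. The number of genes tested in this list therefore depends on that library. Of 10 glucocorticoid-induced genes, 2 rose, the metallothioneins Mt1 (3.64, adjusted p = 0.0266) and Mt2 (3.97, adjusted p = 0.0293), which metals also induce. Library 4 of the 2-year-old WT group also enters here through the shared spread and the batch and sex terms. Without it, the clock gene Per1 (1.04, adjusted p = 0.00402), the kinase Sgk1 (1.27, adjusted p = 0.0393) and the tyrosine aminotransferase Tat (1.22, adjusted p = 0.0408) of this list were also called higher. The share of all genes called without that library is not given here. These added calls are therefore not read as a result about the list. The list genes named above had the same sign in either batch alone, and Hsd3b7, Akr1c12, Akr1c13, Por and Per1 were also called in batch A alone.

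**Figure D5:**
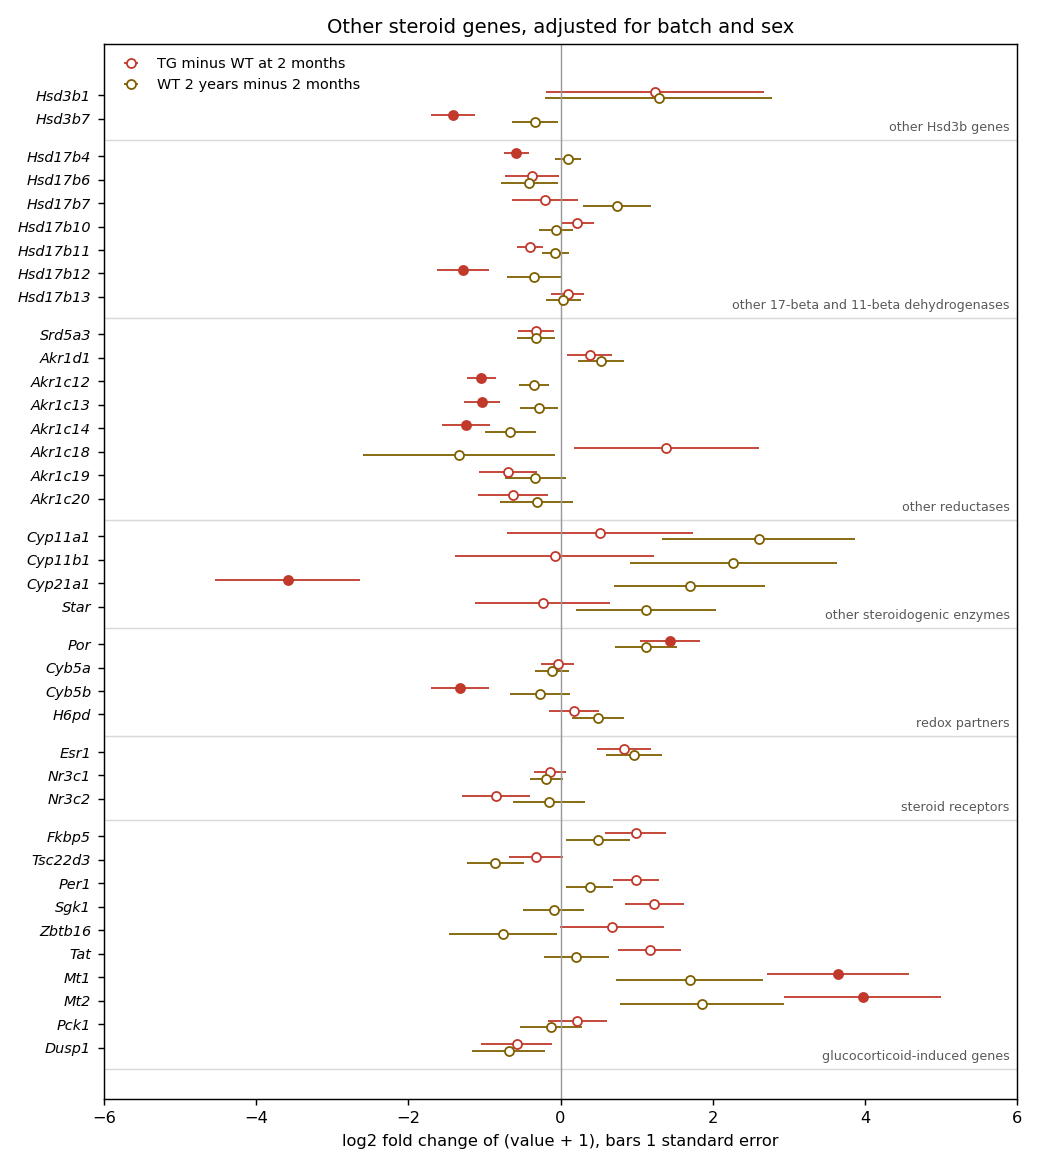
Log2 fold changes of (value + 1) with 1 standard error for other steroid genes by list, TG minus WT at 2 months in red and 2-year-old minus 2-month-old WT in brown; filled circles were called, open circles were not. Mt1 and Mt2 lie farthest to the right in red, at 3.64 and 3.97.

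Hsd17b6, which oxidises androgen metabolites, was the 1 gene of these lists called between the sexes of WT, higher in females by 1.79 (adjusted p = 0.0187), at 4031 to 8029 in females against 948 to 2262 in males. Against old WT, Hsd17b4 (-0.68, adjusted p = 0.0472) and Cyp21a1 (-5.28, adjusted p = 0.00946) fell in TG. Old WT libraries held 4.8, 0, 141, 3088 and 47.2 of Cyp21a1, and without library 4 the difference was -4.10 (adjusted p = 0.0138). Without that library Akr1c12 (-0.91, adjusted p = 0.00698) and Akr1c13 (-0.996, adjusted p = 0.0214) were called lower in TG than in old WT, and Per1 (1.03, adjusted p = 0.0216) and Sgk1 (1.60, adjusted p = 0.0460) higher. The share of all genes called in that fit is not given here, so these added calls are not read as a result about the lists.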

How the data were processed

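The tools named per the submitters' processing notes are Salmon 0.6.0, STAR 2.5.3a and DESeq2, on mm10; what each did, the annotation release and the strand setting are not given in the sources used here. A table of normalized signal per gene was deposited by the authors, named as DESeq2 normalized counts; its values summed to 28077001 to 44543936 per library. At best 60.7% to 74.3% of a library's low values lay within 0.1 of a whole step, so whole reads were not recovered and depth is unknown. The authors also deposited comparison tables that, per the file headers, hold log2 fold changes, a test score and p-values; their names state batch and sex correction.

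The 9 genes and all lists were chosen with earlier results of these data known. From the deposited values, log2(value + 1) was fitted with limma 3.58.1 in R 4.3.3 (lmFit, eBayes with a mean-variance trend), with group, batch and sex as terms, over 14588 genes with a mean of at least 10; p-values are two-sided. The scale understates changes of low genes. The sex comparison used the 11 WT libraries. The fit was tested on simulated data. Named beyond the 9 genes are the list members called, at most 4 per list, and the 3 genes with the highest Pearson's r to each. Marker lists were hepatocyte, adrenal or gonadal, neutrophil, erythroid, Kupffer, sinusoidal endothelial, stellate, cholangiocyte and B cell. In TG against 2-month-old WT, 1 of 6 Kupffer genes rose (Marco), 1 of 5 sinusoidal genes rose (Stab2), 1 of 5 cholangiocyte genes fell (Spp1), and 0 of 5 stellate and 0 of 3 tested B cell genes were called. Over all genes, 3.83% fell and 2.89% rose. All 3 tested B cell genes had negative log2 fold changes, and 2 of them had unadjusted p under 0.05 by limma. Alternatives were another pseudocount (0.5, 5), no filter or a mean of at least 100, a trimmed-mean rescaling, terms left out, a block on the label number, fewer groups, males or 1 batch alone, the authors' tables, and each library left out. One gene of the lists is not reported here. Coordinates and UTRs are from GENCODE M21 on GRCm38, counted from 1.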

Additional observations from a re-analysis of the deposited data

Results flagged for a closer look

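In 8 of 33 gene and group sets, 1 library lay far above the rest of its group by Dixon's criterion. Normally distributed values would meet it in about 1 in 20 sets. Here it was applied to values not on a log scale, with the sexes pooled, and the Hsd3b sum repeats its member genes. The 8 sets are therefore not set against that rate. Of these, 3 came from 2-year-old WT library 5: Hsd3b5 at 3664 against 3.0 to 16.9 in the other 4 old libraries, Hsd3b2 at 811 against 290 to 430, and the sum of Hsd3b2, Hsd3b3 and Hsd3b5 at 9496 against 2505 to 4406. Another 2 came from 2-year-old WT library 4: the adrenal or gonadal marker sum at 9743 against 60.8 to 182, and Srd5a2 at 20.0 against 4.1 to 7.8. Cyp17a1 was 16059 in TG library 1 against 2310 to 6152 in the other TG libraries. Hsd3b5 was 51.9 in TG library 6 against 9.4 to 18.0 in the others. Hsd3b2 was 2921 in 2-month-old WT library 1 against 621 to 1276 in the others.

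The interaction term of transgene and sex, female minus male, was past the threshold for Hsd3b5 (5.32, adjusted p = 0.0398) and Cyp17a1 (-4.66, adjusted p = 0.0409). Its TG female arm is 1 library, so these values set that library apart and do not measure a difference between the sexes.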

How the results depend on the processing

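The number of the 8 genes called in TG against 2-month-old WT was 7 under every alternative except batch A alone (5) and batch B alone (2), and 7 to 7 with each library left out. With age it was 0, except 1 in males alone and 3 in the authors' deposited table, and 0 to 2 with each library left out. For TG against 2-year-old WT it was 2, but 0 with these 2 groups alone, 0 in males alone, 0 in batch A alone and 0 in batch B alone, and 2 to 3 with each library left out; unadjusted p was under 0.05 for 3 or 4 genes in those settings. Between the sexes it was 1, but 0 with no filter (limma, 4 at unadjusted p under 0.05), and 0 to 1 with each library left out. The settings with males, 1 batch or 2 groups hold fewer libraries; otherwise the cause was not tested.

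Signs turned for Hsd11b1 in TG against 2-month-old WT (0.25 in males, 0.43 in batch B, and -0.28 to 0.19 with each library left out, positive without TG library 3) and against 2-year-old WT (-0.45 to 0.027 with each library left out, positive without TG library 3), for Akr1c6 between sexes (-0.053 in batch A, -0.46 in young batch A, and -0.16 to 0.18 with each library left out) and for Hsd17b2 between sexes (0.10 with the replicate block, and -0.26 to 0.24 with each library left out). None of these was called.

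Of 16 pairs of same-numbered libraries in different groups, 8 share batch and sex and 8 do not. In 13 the deviations from the group means correlated above 0.1 (-0.23 to 0.59 over all 16), not in every pair, and the labels tie the numbers to nothing shared, so they were not taken as a pairing. The replicate block gave 7, 0, 2 and 1 calls in the 4 comparisons in the order above.

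Over all genes, 979 were called in TG against 2-month-old WT, but 541 without the batch term, 495 in batch A, 263 in batch B and 2211 in the authors' table. With age, 21 were called, but 9 at a mean of at least 100, 9 without sex, 10 without batch, 11 with the replicate block, 10 with 2 groups, 41 in males, 1 in batch A, 0 in batch B (limma, 3764 at unadjusted p under 0.05) and 280 in the authors' table. Against 2-year-old WT, 372 were called, but 176 without batch, 247 with the block, 120 with 2 groups, 175 in males, 175 in batch A and 45 in batch B. Between sexes, 85 were called, but 44 without the filter and 31 with the block. The median over all genes moved by less than 0.1 under rescaling.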
